A study of Mus musculus with 10 samples.

Results

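Fibroblast growth factor (FGF) signalling was followed through 10 genes: the ligands Fgf8, Fgf15 and Fgf17, the receptors Fgfr1, Fgfr2 and Fgfr3, the feedback inhibitors Spry1 and Spry2, and the ETS transcription factor genes Etv4 and Etv5. The members were chosen by symbol with earlier results of these data known, and a row of the array table was taken where its annotation gave that symbol and no other. All 10 were found, among 19936 genes that could be tested. Etv5 had 2 probe sets, of which the brighter was used, and each other member had 1. Of the 50 annotated probe sets with IDs nearest to the brighter Etv5 set, 49 belong to genes on chromosome 10 and 0 to genes on chromosome 16, where Etv5 lies, whereas for the dimmer set 48 of 50 belong to chromosome 16. Whether the brighter set also matches a second locus was not tested. The dimmer, second set is therefore given too for the group difference, the neuronal and thalamic marker lists and the pairs with Spry1 and Spry2. All other Etv5 expression results rest on the brighter set alone.

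The embryos were dissected 12 days after the vaginal plug and staged as E12.5, from 2 dams of a CD1/NMRI mixed background. The dtg group held 5 transgenic embryos, in which a constitutively active FoxO3 allele was placed under the CaMKIIa promoter, and the stg group held 5 control embryos. The labels do not spell out dtg or stg, do not say whether stg embryos carry a transgene, and do not assign embryos to dams, so litter and group cannot be told apart. Luciferase activity and genotype were used by the submitters to check the transgenes. One side of each forebrain, divided down the middle, gave the RNA for 1 Affymetrix array, after it had been cut from most of the thalamus and freed of skin. Values are log2 intensities, on which a difference of 1 is a doubling of signal. They do not allow one gene's level to be set against another's, and in whole tissue fewer cells of a type and less RNA per cell cannot be told apart.

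Secreted FGFs bind receptor tyrosine kinases together with heparan sulphate and activate the RAS and MAP kinase cascade. Cells that receive the signal transcribe Etv4 and Etv5, which carry its effects into the nucleus, and Spry1 and Spry2, whose proteins damp the cascade, so these 4 genes are widely used as readouts of FGF activity. In the embryonic forebrain Fgf8 and Fgf17 are made at the rostral midline and pattern the cortex along its front-to-back axis, while Fgfr1, Fgfr2 and Fgfr3 are carried by the ventricular progenitors. Fgf15, the mouse counterpart of human FGF19, is also expressed in the diencephalon and midbrain.

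Array medians over all rows lay between 5.36 and 5.39, and no 2 arrays were identical. Over all 19936 genes 21 passed an adjusted p of 0.05 in limma, a share of 0.105%, and leaving out 1 embryo at a time gave 7 (without dtg embryo 1) to 58 (without stg embryo 4). Foxo3 averaged 6.98 ± 0.147 in dtg and 6.64 ± 0.137 in stg embryos (SD, n = 5 each; limma adjusted p = 0.218), and whether its probes cover the transgene is not given in the sources used here. Measured forebrain identity genes ranged from the 47.94th percentile of gene means for Gsx2 to the 97.14th for Lhx2, with Emx1 at the 73.99th. This is a rank of probe-set brightness and not of transcript level. Embryo 5 of the stg group stood apart from the other arrays, with a mean correlation of 0.985 against 0.992 to 0.993 for the other 9. Its mesenchyme markers averaged 8.29, above the 6.58 to 7.30 of dtg embryos and the 6.32 to 7.22 of stg embryos 1 to 4. Its pan-neuronal markers averaged 7.45, below the 8.41 to 8.98 of dtg embryos and the 8.44 to 8.70 of stg embryos 1 to 4. Among forebrain identity genes it had the lowest value of all embryos for Dlx1 (4.82), Dlx2 (5.11) and Gsx2 (4.51). It had the highest for Emx1 (7.90), Emx2 (8.08) and Lhx2 (9.95). Whether its piece of tissue differed in regional content was not tested. Values for the members and for the gene lists are therefore given with and without this embryo. Without it 37 genes passed the adjusted test, a share of 0.186%.

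Marker lists of other tissue and of cell state were read beside the members. Thalamus and hypothalamus markers were higher in dtg embryos for 11 of 11 genes, with a median difference of 0.95. List means ran from 6.82 to 7.37 in dtg and from 5.53 to 6.84 in stg embryos. Single genes were uneven, from 0.15 for Neurog1 to 2.26 for Olig3, with Otp at 0.16, Foxb1 at 0.18 and Sim1 at 1.29. Of the 11, 8 were higher at an unadjusted p below 0.05, where 4.1% of all genes were, and 0 passed the adjusted test. Without stg embryo 5 the median was 0.71, 7 were higher at an unadjusted p below 0.05, and Lhx5, a LIM homeobox gene, passed with a difference of 0.81 (limma adjusted p = 0.0389). Forebrain identity markers went the other way, lower in dtg embryos for 7 of 9 genes and higher for 2, with a median of -0.25. The counts were the same without stg embryo 5, with a median of -0.23. Of 10 midbrain and isthmus markers 8 were higher and 2 lower, with a median of 0.10, and list means of 4.93 to 5.35 in dtg and 4.75 to 5.26 in stg embryos overlapped. Otx2, a homeobox gene of the forebrain and midbrain, had the largest difference of this list, 0.87 (limma adjusted p = 0.247). Its groups did not overlap, which held for 1.6% of all genes. En1 and En2, which mark the midbrain and isthmus, differed by -0.00088 and 0.081. Their signals were dim, at the 32.27th and 21.21st percentiles of gene means, and how far they stand above background is unknown. Pan-neuronal markers were higher for 12 of 12 genes with a median of 0.35, and for 9 of 12 with a median of 0.12 without stg embryo 5. Mesenchyme markers were higher for 3 of 10 genes with a median of -0.053, and for 10 of 10 with a median of 0.27 without stg embryo 5. The G2/M genes of dividing cells were lower for 11 of 11, with a median of -0.18, 4 of them at an unadjusted p below 0.05, where 3.48% of all genes were. All 11 were still lower without stg embryo 5, with a median of -0.16 and 2 at an unadjusted p below 0.05. Radial glia markers were higher for 5 of 10 genes and lower for 5, with a median of 0.00037. Without stg embryo 5, 4 were higher and 6 lower, with a median of -0.062. None of the 9 forebrain identity, 10 radial glia, 12 pan-neuronal, 10 mesenchyme or 11 G2/M genes passed the adjusted test with or without that embryo.

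The FoxO proteins recognise a core written GTAAACA, and ETS factors such as Etv4 and Etv5 a site that can be written CGGAAGT. Promoter windows of the members were searched for these exact letters on either strand. RefSeq windows (GRCm38.p6, 250 bases before to 50 after a start) were matched for 5 members, with 7 windows in all. The FOXO core was found in 1 of the 7, at a start of Etv5, and in 3.65% of all 32851 windows of the same length. The exact ETS letters CGGAAGT were found in 0 of the 7, and in 6.42% of all windows. Shorter or other forms of the ETS site were not searched, so their absence is not shown. Windows of 3 members are shown: that of Etv5 because it holds the FOXO core, in capitals, at -183 from the start on the strand shown, and those of Spry2 and Fgfr2 because these genes had the smallest p-values among members with a window. They lie at chr16:22439521-22439820 (minus strand), chr14:105896770-105897069 (minus strand) and chr7:130266759-130267058 (minus strand), and are written 5′ to 3′ in the direction of transcription.
Etv5: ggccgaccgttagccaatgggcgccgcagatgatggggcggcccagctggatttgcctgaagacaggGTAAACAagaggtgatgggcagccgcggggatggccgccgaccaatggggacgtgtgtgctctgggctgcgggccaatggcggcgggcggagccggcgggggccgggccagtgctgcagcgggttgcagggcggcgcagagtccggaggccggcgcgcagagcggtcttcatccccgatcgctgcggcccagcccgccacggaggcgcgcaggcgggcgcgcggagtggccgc
Spry2: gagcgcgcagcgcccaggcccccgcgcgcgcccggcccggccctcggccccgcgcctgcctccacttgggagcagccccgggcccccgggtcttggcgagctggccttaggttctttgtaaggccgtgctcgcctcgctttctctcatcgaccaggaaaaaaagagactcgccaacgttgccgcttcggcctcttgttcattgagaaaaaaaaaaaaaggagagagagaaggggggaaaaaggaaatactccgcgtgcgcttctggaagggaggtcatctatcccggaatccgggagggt
Fgfr2: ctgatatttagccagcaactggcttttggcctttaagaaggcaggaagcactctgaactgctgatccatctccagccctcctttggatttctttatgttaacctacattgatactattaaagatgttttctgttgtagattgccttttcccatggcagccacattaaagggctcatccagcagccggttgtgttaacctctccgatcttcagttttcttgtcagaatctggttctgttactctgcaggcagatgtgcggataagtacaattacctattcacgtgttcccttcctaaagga
The G and C content was 74.0% in the Etv5 window, 62.7% in the Spry2 window and 43.7% in the Fgfr2 window, or percentiles 95.2, 76.9 and 18.2 of all windows. A match of letters shows neither binding nor regulation.

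No member passed the test over all genes, and the smallest adjusted p was 0.402. By direction, 7 of 10 members were higher and 3 lower in dtg forebrains, with a median difference of 0.11 on the log2 scale against -0.0038 over all genes. The 7 were the 3 ligands and the 4 readouts, and the 3 were the receptors. An unadjusted p below 0.05 was reached by 3 members, Fgf15, Fgfr2 and Spry2, where 7.58% of all genes reached it. The dtg and stg values overlapped for all 10 members; 1.6% of all genes had values that did not overlap. Without stg embryo 5, 8 members were higher in dtg embryos, and 5 had an unadjusted p below 0.05, where 6.83% of all genes did.

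**Figure D1:**
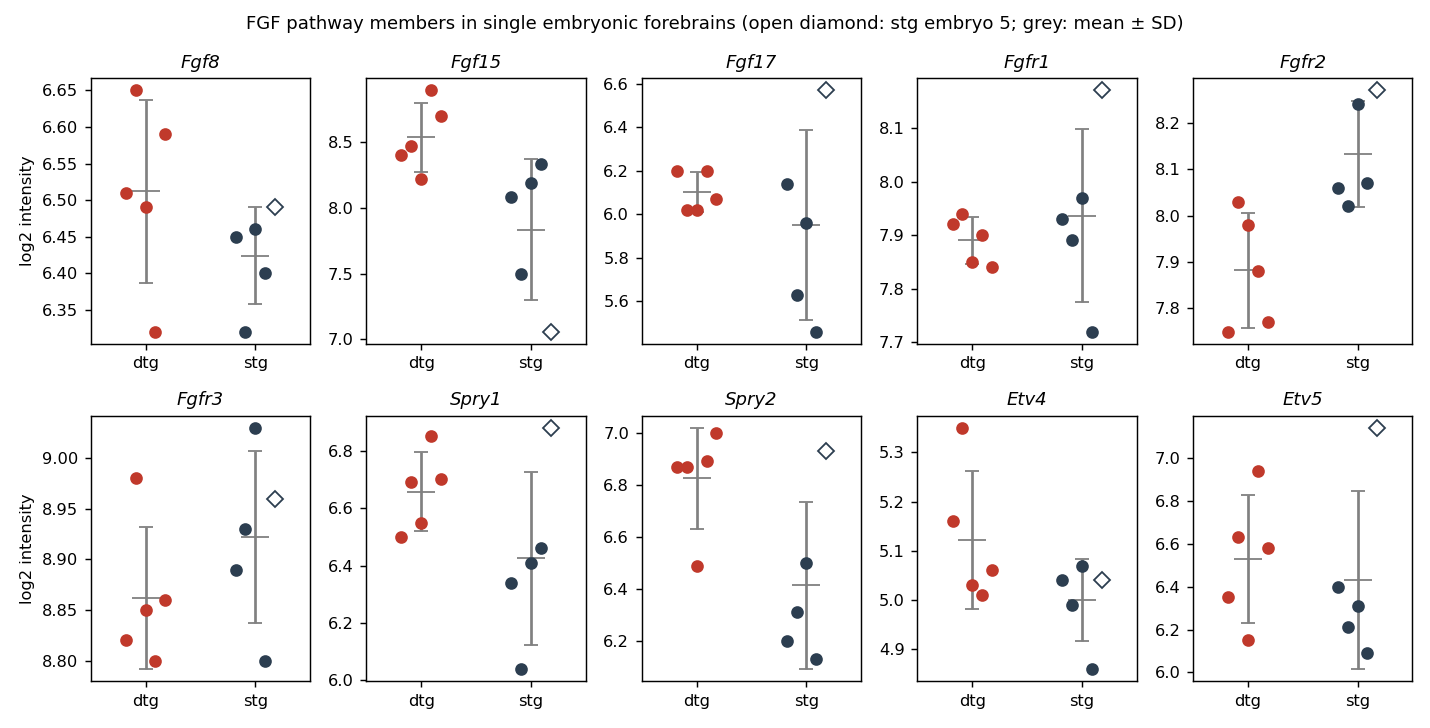
Log2 intensity (vertical axes, 1 panel per gene, each with its own range) of the 10 FGF pathway members in each of 5 dtg (red, left) and 5 stg (dark, right) forebrains, with the mean and SD in grey. The open diamond is stg embryo 5, which had the highest stg value of Fgf8, Fgf17, Fgfr1, Fgfr2, Spry1, Spry2 and Etv5 and the lowest of Fgf15.

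Among the ligands, Fgf15 had the largest difference of all members. It read 8.40, 8.47, 8.22, 8.89 and 8.70 in dtg embryos 1 to 5, against 8.08, 7.50, 8.19, 8.33 and 7.06 in stg embryos 1 to 5. Of the dtg embryos 4 lay above every stg embryo, dtg embryo 3 lay below stg embryo 4, and the stg values were widely spread. The means were 8.54 ± 0.262 in dtg and 7.83 ± 0.537 in stg embryos (SD, n = 5 each), a difference of 0.70 ± 0.223 (SE) or 1.63-fold, with a 95% interval of 1.16 to 2.28-fold (limma adjusted p = 0.443; exact two-sided permutation p = 0.0159). Without stg embryo 5 the difference was 0.51 (limma adjusted p = 0.473).

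Fgf15 was set beside the thalamus and hypothalamus markers of the same embryos. In stg embryos 1 to 5 that list averaged 6.12, 6.09, 6.41, 6.84 and 5.53, so that embryo 5 was lowest and embryo 4 highest for both. In dtg embryos 1 to 5 it averaged 7.20, 7.14, 7.37, 6.82 and 7.12, and there embryo 4, with the highest Fgf15, had the lowest list mean. With group means removed, Pearson's r over the 10 embryos was 0.589 and Spearman's rho 0.430 (exact within-group permutation p = 0.193 and 0.307). Without stg embryo 5 alone r was 0.142 and rho -0.067. Without stg embryos 4 and 5, and with the group means of all 10 embryos kept, r was -0.304. The part of diencephalic tissue in the Fgf15 difference was not tested.

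Fgf8, the main organizer signal of the rostral forebrain, read 6.51, 6.65, 6.49, 6.32 and 6.59 in dtg embryos and 6.45, 6.32, 6.46, 6.40 and 6.49 in stg embryos. The groups overlapped, with 3 dtg embryos above and 1 below all stg embryos. The difference was 0.086 ± 0.066 (SE, n = 5 each; limma adjusted p = 0.834), and its 95% interval ran from 0.960 to 1.17-fold. It was 0.10 without stg embryo 5, 0.051 without dtg embryo 2 and 0.13 without dtg embryo 4. Fgf17, a close relative of Fgf8 with the same rostral source, read 6.20, 6.02, 6.02, 6.20 and 6.07 in dtg embryos and 6.14, 5.63, 5.96, 5.46 and 6.57 in stg embryos. The dtg values thus lay close together inside the stg range, with an SD of 0.0913 in dtg and 0.438 in stg embryos. Its difference was 0.15 ± 0.169 (limma adjusted p = 0.889), and 0.31 ± 0.120 without stg embryo 5, whose value was the highest of all 10 (limma adjusted p = 0.648).

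The 3 receptor genes read slightly lower in dtg forebrains, by the most for Fgfr2, although Fgfr1 did not without stg embryo 5. Fgfr2 read 7.75, 8.03, 7.98, 7.88 and 7.77 in dtg embryos, against 8.06, 8.02, 8.24, 8.07 and 8.27 in stg embryos. Every dtg embryo but number 2 lay below all stg embryos, and dtg embryo 2 exceeded only stg embryo 2. The means were 7.88 ± 0.124 in dtg and 8.13 ± 0.116 in stg embryos (SD, n = 5 each), a difference of -0.25 ± 0.0748 (SE) or 0.842-fold, with a 95% interval of 0.752 to 0.942-fold (limma adjusted p = 0.402; exact permutation p = 0.0159). Leaving out any 1 embryo kept it between -0.29 and -0.21.

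Fgfr1, the receptor most tied to telencephalic FGF signalling, read 7.92, 7.94, 7.85, 7.90 and 7.84 in dtg and 7.93, 7.89, 7.97, 7.72 and 8.17 in stg embryos. All dtg values lay inside the stg range, and the difference was -0.048 ± 0.0738 (SE, n = 5 each; limma adjusted p = 0.925). It was 0.011 without stg embryo 5, so the data give it no direction. Fgfr3, which in the cortex is graded with its high side caudal, read 8.82, 8.98, 8.85, 8.80 and 8.86 in dtg and 8.89, 8.93, 9.03, 8.80 and 8.96 in stg embryos. These groups overlapped too, with a difference of -0.059 ± 0.0578 (limma adjusted p = 0.869) and a 95% interval of 0.879 to 1.05-fold. It was -0.049 without stg embryo 5, -0.033 without stg embryo 3 and -0.090 without stg embryo 4.

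The Sprouty genes read higher in dtg forebrains, and by more without stg embryo 5. Spry2 read 6.87, 6.87, 6.49, 6.89 and 7.0 in dtg embryos, against 6.20, 6.31, 6.50, 6.13 and 6.93 in stg embryos. In 4 of 5 dtg embryos it exceeded stg embryos 1 to 4, dtg embryo 3 fell just under stg embryo 3, and stg embryo 5 lay inside the dtg range. The means were 6.82 ± 0.196 in dtg and 6.41 ± 0.321 in stg embryos (SD, n = 5 each), a difference of 0.41 ± 0.144 (SE) or 1.33-fold with a 95% interval of 1.07 to 1.65-fold (limma adjusted p = 0.515; exact permutation p = 0.0714). Without stg embryo 5 the difference was 0.54 ± 0.106, with the smallest adjusted p found for any member under any setting (limma adjusted p = 0.0837).

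Spry1 read 6.50, 6.69, 6.55, 6.85 and 6.70 in dtg embryos, against 6.34, 6.04, 6.41, 6.46 and 6.88 in stg embryos. All dtg embryos lay above stg embryos 1 to 4 and below stg embryo 5. The difference was 0.23 ± 0.129 (SE, n = 5 each; limma adjusted p = 0.742; exact permutation p = 0.167), and 0.35 ± 0.0969 without stg embryo 5 (limma adjusted p = 0.306). Without that embryo 2.48% of all genes had groups that did not overlap, and Spry1 was the only member among them.

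For Etv4 and Etv5 the groups overlapped widely. Etv5 read 6.35, 6.63, 6.15, 6.94 and 6.58 in dtg embryos and 6.40, 6.21, 6.31, 6.09 and 7.14 in stg embryos. Each group spread over more than the difference between their means, 6.53 ± 0.297 in dtg and 6.43 ± 0.415 in stg embryos (SD, n = 5 each). The difference was 0.096 ± 0.192 (SE; limma adjusted p = 0.944), and it was 0.27 ± 0.134 without stg embryo 5 and -0.0057 without dtg embryo 4. The second Etv5 probe set gave a difference of 0.095 (exact permutation p = 0.619), and 0.27 without stg embryo 5. Over the 10 arrays, which include both groups and the outlying stg embryo 5, its r with the first set was 0.969. Etv4, with a signal at the 40.48th percentile of gene means, read 5.16, 5.35, 5.03, 5.01 and 5.06 in dtg and 5.04, 4.99, 5.07, 4.86 and 5.04 in stg embryos. Only dtg embryos 1 and 2 exceeded all stg embryos, and the difference was 0.12 ± 0.0724 (limma adjusted p = 0.763). It was 0.13 without stg embryo 5 and 0.066 without dtg embryo 2.

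**Figure D2:**
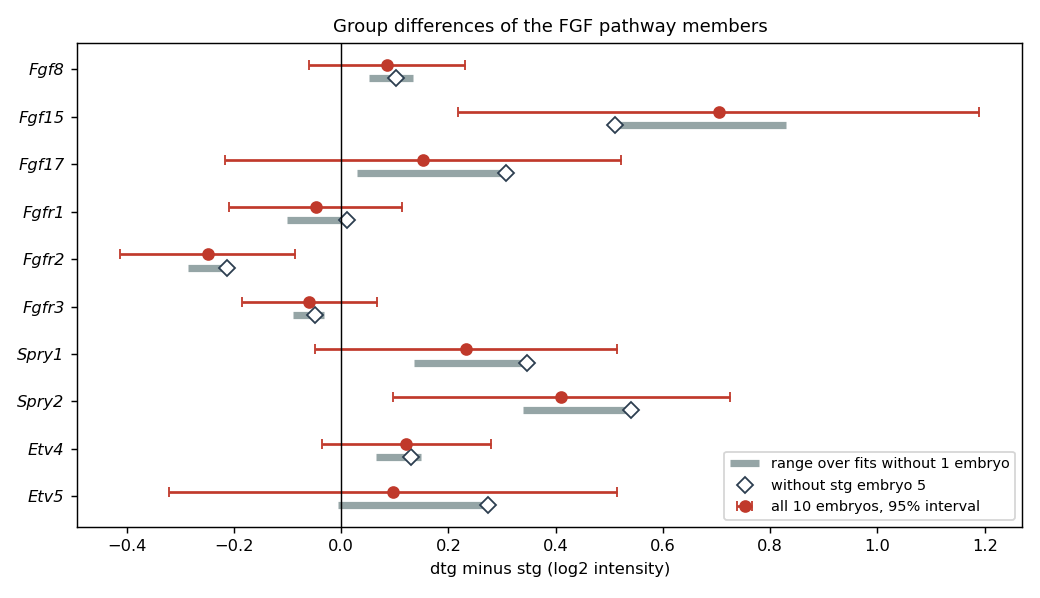
Difference of dtg minus stg in log2 intensity (horizontal axis) for each member, with the limma estimate and 95% interval over all 10 embryos in red, the range over fits without 1 embryo in grey and the value without stg embryo 5 as an open diamond. The intervals of Fgf15, Fgfr2 and Spry2 did not include 0 before adjustment for the number of genes, and leaving out stg embryo 5 moved Spry1, Spry2, Etv5 and Fgf17 to the right.

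Etv5 ran against the neuronal markers across embryos by Pearson's r, while its rho and the Sprouty genes did not pass after adjustment. With group means removed, Etv5 and the mean of 12 pan-neuronal genes had a Pearson r of -0.934 and a Spearman rho of -0.830 over 10 embryos (exact within-group permutation p = 0.00292 and 0.00819). Adjusted over the 30 relations computed between members and 3 marker lists, these became p = 0.0437 for r and 0.101 for rho by permutation. The other marker lists were not correlated with the members, and the adjustment does not cover the choice of these 3. In each of the 3, stg embryo 5 had the lowest or highest list mean of the 10 embryos. Without dtg embryo 4 and stg embryo 5, and with the group means of all 10 embryos kept, r was -0.754. For Spry2 r was -0.833 and rho -0.782 (exact permutation p = 0.0149 and 0.0135; adjusted p = 0.0892 and 0.101), with r = -0.598 without the same 2 embryos. For Spry1 r was -0.840 and rho -0.636 (exact permutation p = 0.0101 and 0.0675; adjusted p = 0.0892 for r), with r = -0.439 without them. Etv5 also ran against the thalamus and hypothalamus list, with r = -0.873 and rho = -0.745 (exact permutation p = 0.00181 and 0.0203, adjusted p = 0.0437 and 0.122). Without stg embryos 4 and 5, and with the group means of all 10 embryos kept, that r was -0.766. Without stg embryo 5 alone, r with the pan-neuronal list was -0.826 for Etv5, -0.529 for Spry2 and -0.557 for Spry1. The second Etv5 probe set had r = -0.908 with that list over 10 embryos and -0.682 over 9. With the thalamus and hypothalamus list its r was -0.861 over 10 embryos and -0.683 over 9, where the first set had -0.718.

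Against the mesenchyme list no member passed after adjustment. The r values without stg embryos 1 and 5 kept the group means of all embryos, and cannot be set against those without stg embryo 5 alone. Fgfr2 had r = 0.694 and rho = 0.733 (exact permutation p = 0.0179 and 0.0126; adjusted p = 0.0892 and 0.101), with r = 0.636 without stg embryo 5 and 0.638 without stg embryos 1 and 5. Fgfr1 had r = 0.808 and rho = 0.818 (exact permutation p = 0.0415 and 0.0130; adjusted p = 0.119 and 0.101), with r = 0.427 without stg embryo 5 and 0.693 without stg embryos 1 and 5. For Spry2 r was 0.803 and rho 0.552 (exact permutation p = 0.0245 and 0.140; adjusted p = 0.105 for r), with r = 0.445 without stg embryo 5 and 0.461 without stg embryos 1 and 5. The part of neuron or mesenchyme content in the group differences of these genes was not tested.

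**Figure D3:**
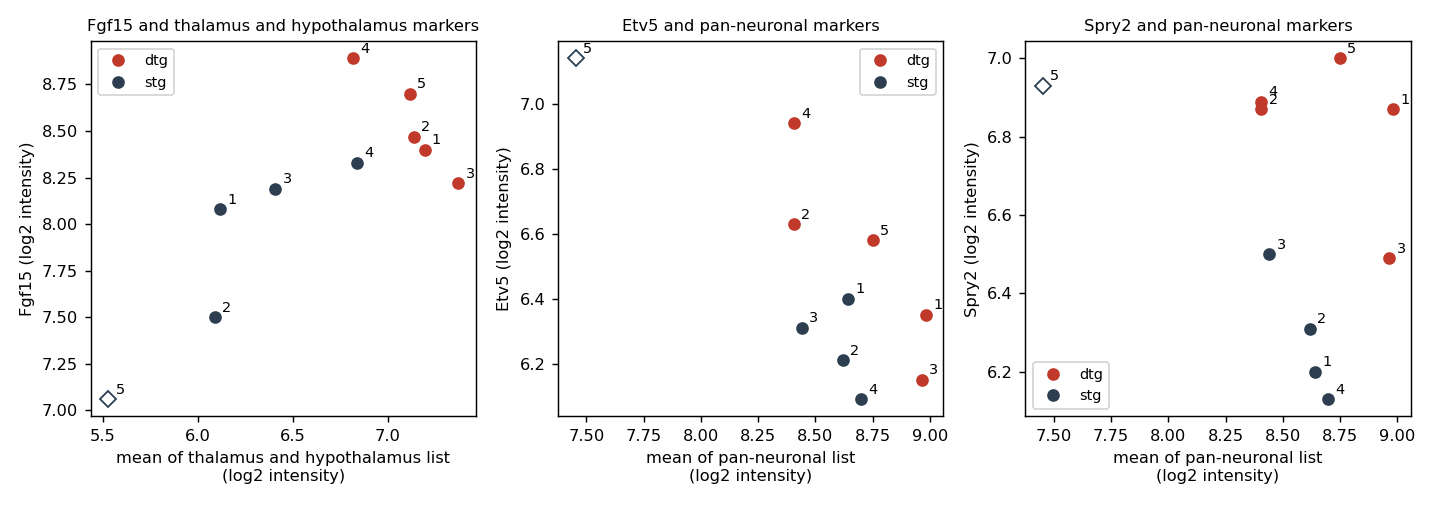
Log2 intensity of Fgf15, Etv5 and Spry2 (vertical axes) against the mean log2 intensity of a marker list (horizontal axes) in 5 dtg (red) and 5 stg (dark) embryos, numbered as in the labels, with stg embryo 5 as an open diamond. Etv5 is high where pan-neuronal markers are low, and stg embryo 5 lies at the end of all 3 panels.

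Members were also compared with each other, over 45 pairs with group means removed. No pair passed after adjustment over the 45 pairs, by r or by rho, while 8 pairs by r and 6 by rho had an unadjusted exact p below 0.05. The 8 pairs by r differed in how far they held without stg embryo 5 alone. The r values without 2 embryos kept the group means of all embryos, and cannot be set against those without stg embryo 5 alone. Fgf17 and Etv5 had the smallest p by r, with r = 0.789 and rho = 0.636 (exact permutation p = 0.00708 and 0.0544; adjusted p = 0.121 for r), and r was 0.466 without stg embryo 5 and 0.396 without stg embryos 4 and 5. Fgfr3 and Etv4 had r = 0.808 and rho = 0.770 (exact permutation p = 0.00993 and 0.0211; adjusted p = 0.121 and 0.300), and r was 0.806 without stg embryo 5 and 0.557 without dtg embryo 2 and stg embryo 4. Spry2 and Etv5 had r = 0.837 and rho = 0.806 (exact permutation p = 0.0130 and 0.0103), with r = 0.594 without stg embryo 5 and 0.536 without dtg embryo 3 and stg embryo 5. Fgf17 and Fgfr1 had r = 0.897 and rho = 0.576 (exact permutation p = 0.0142 and 0.152), with r = 0.737 without stg embryo 5 and 0.399 without stg embryos 4 and 5. Spry1 and Etv5 had r = 0.819 and rho = 0.721 (exact permutation p = 0.0142 and 0.0320), with r = 0.554 without stg embryo 5 and 0.717 without stg embryos 2 and 5. For the second Etv5 probe set r was 0.843 with Spry1 and 0.783 with Spry2, and 0.581 and 0.410 without stg embryo 5. For the other 3 pairs, all with Fgfr1, r was 0.805 with Spry2, 0.776 with Etv5 and 0.551 with Etv4, and without stg embryo 5 it was 0.509, 0.421 and 0.741. Fgf8 and its readout Etv5 had r = 0.0753 and rho = 0.442 (exact permutation p = 0.831 and 0.237). For this pair r was -0.226 without stg embryo 5 and 0.655 without dtg embryos 2 and 4.

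Fgf15 and Spry1 differed most between the sets of embryos. Over all 10 embryos r was -0.129 and rho 0.236 (exact permutation p = 0.799 and 0.577). Over the 9 embryos without stg embryo 5, a set chosen after the values were seen, r was 0.955 and rho 0.967 (exact permutation p = 0.00174 and 0.00104; adjusted over 45 pairs p = 0.0781 and 0.0469). With dtg embryo 3 and stg embryo 2 also left out, and the group means of the 9 embryos kept, r was 0.913. In stg embryo 5 Fgf15 was the lowest and Spry1 the highest of the 10 values.

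**Figure D4:**
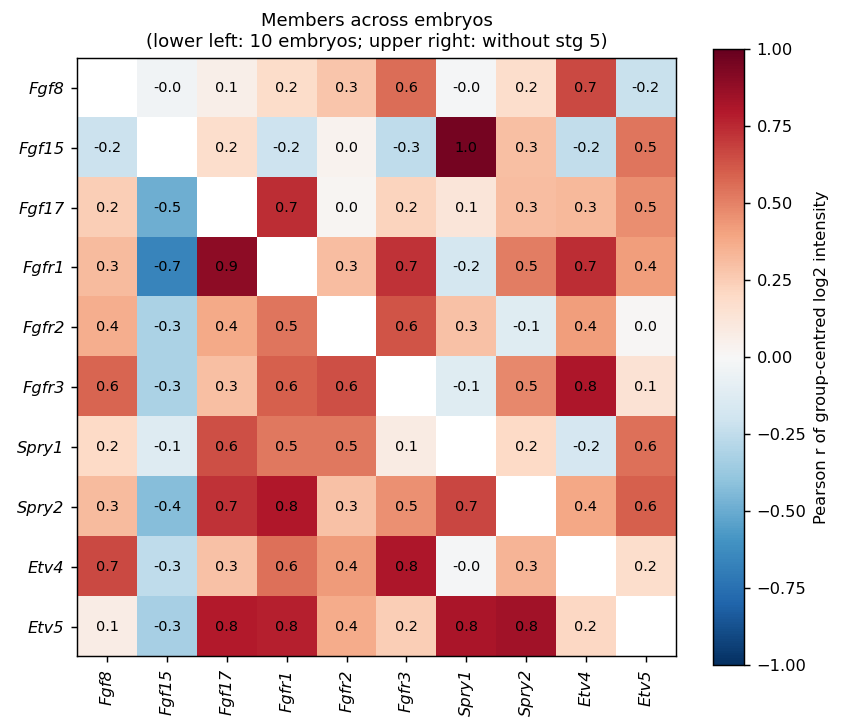
Pearson r between members of log2 intensities with group means removed, over 10 embryos below the diagonal and over the 9 embryos without stg embryo 5 above it (colour scale from -1 to 1). Fgf15 and Spry1 change most, from near 0 below the diagonal to 0.955 above it.

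Genes whose values followed a member most closely over the 10 embryos, with group means removed, were searched among 11963 genes at or above the 40th percentile of gene means. Spry1 was followed by Pik3c2a, Capn2 and Rpl14, with r from 0.975 to 0.987. Etv5 was followed by Ddx11, Dhx16 and Utp20 (r from 0.975 to 0.983), and Spry2 by Susd6, Gpx4 and Wwc1 (0.957 to 0.972). Fgfr1 was followed by Pygb, Rplp1 and Slc12a4 (0.971 to 0.972). Fgfr2 was followed by Dusp3, Gfi1b and Per3 (0.934 to 0.942), and Fgfr3 by Il27, Necab3 and Jun (0.915 to 0.952). Fgf8 was followed by Kxd1, Tex264 and Mdga2 (0.901 to 0.942), and Fgf15 by Rnf114, Tab1 and Tppp3 (0.906 to 0.934). Fgf17 was followed by Dnaaf5, Lmf2 and Plcb3 (0.927 to 0.943), and Etv4 by Nab2, Pop7 and Col20a1 (0.915 to 0.939). No member was among the 3 closest genes of another. Without stg embryo 5, r was lowest for Fgf15 with Tppp3 (0.799) and for Fgf17 with Plcb3 (0.805) and Lmf2 (0.824). It rose for others, such as Fgf15 with Tab1 (0.959) and Etv4 with Nab2 (0.972). The r values over 10 embryos were the highest of many and are given as a description.

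The wider pathway was read through 5 lists, in which 0 genes passed the adjusted test. Of 15 measured receptors and coreceptors, 13 were lower and 2 higher in dtg forebrains, with a median difference of -0.073 against -0.0038 over all genes, and 4 were lower at an unadjusted p below 0.05, where 3.48% of all genes were. The counts were 12 lower and 3 higher without stg embryo 5, with a median of -0.074. The G2/M genes were lower and the pan-neuronal genes higher in dtg, as described above, while radial glia genes were 5 higher and 5 lower. The part of these cell types and states in the receptor list was not tested. The 4 were Fgfr2 and 3 further genes. Gpc1, a glypican that presents FGFs on heparan sulphate chains, differed by -0.34 ± 0.0778 (SE, n = 5 each; limma adjusted p = 0.185). Fgfbp3, which encodes a carrier that binds secreted FGFs, differed by -0.30, and Fgfrl1, a receptor without a kinase domain, by -0.20. The syndecan gene Sdc1 differed by -0.18. The differences without stg embryo 5 were -0.31 for Gpc1, -0.27 for Fgfbp3, -0.21 for Fgfrl1 and -0.10 for Sdc1. Of 22 ligand-family genes 12 were higher and 10 lower, with a median of 0.018, and none but Fgf15 differed by more than 0.21 in either direction. When stg embryo 5 was left out, 10 were higher and 12 lower, with a median of -0.0070, so the list has no settled direction. Fgf13, whose product stays inside the cell and binds sodium channels, differed by -0.21 (limma adjusted p = 0.360). Fgf9 differed by 0.070, Fgf2 by -0.10 and Fgf10 by 0.064, the last 2 below the lower quartile of gene means.

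Among feedback inhibitors and transcriptional readouts, 12 of 17 genes were higher and 5 lower, with a median of 0.092, a list that holds the 4 members. The counts were the same without stg embryo 5, with a median of 0.12. Myc, a growth regulator, differed by -0.36 (limma adjusted p = 0.206) and the immediate early gene Ier2 by -0.25. Ccnd1, the cyclin D1 gene, differed by 0.35 (limma adjusted p = 0.542). Myc was at -0.34, Ier2 at -0.25 and Ccnd1 at 0.32 without stg embryo 5. Another Sprouty gene, Spry3, differed by 0.23 at the 25.97th percentile of gene means, and by 0.17 without stg embryo 5. The MAP kinase phosphatase gene Dusp6, named here after its value was seen, differed by 0.29 ± 0.187 (limma adjusted p = 0.791), and by 0.47 ± 0.118 without stg embryo 5 (limma adjusted p = 0.220).

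In the intracellular cascade 11 of 15 genes were higher and 4 lower, with a median of 0.020, and without stg embryo 5 the counts were the same. Braf, the RAF kinase that activates MEK, had the smallest p of the 5 lists, with a difference of 0.28 ± 0.0530 (limma adjusted p = 0.0901) and dtg values of 8.11 to 8.30 against stg values of 7.83 to 7.97. Its groups did not overlap (exact permutation p = 0.00794, the smallest that 252 assignments allow), and without stg embryo 5 the difference was 0.28 (limma adjusted p = 0.110). The MEK gene Map2k1 differed by -0.13, the exchange factor gene Sos2 by 0.077 and the phosphatase gene Ptpn11 by -0.069, and without stg embryo 5 these were -0.095, 0.062 and -0.041. Among 13 patterning genes linked to Fgf8, 6 were higher and 7 lower, with a median of -0.026, and 7 higher and 6 lower without stg embryo 5, with a median of 0.054. The orphan receptor gene Nr2f2, a COUP transcription factor, differed by 0.59 ± 0.158 (limma adjusted p = 0.297), and Pax6 by 0.22 (adjusted p = 0.380). Sp8, which promotes Fgf8 expression at the rostral midline, differed by -0.30 (adjusted p = 0.523), and Lhx2 by -0.28. With stg embryo 5 left out the values were 0.43 for Nr2f2, 0.23 for Pax6, -0.21 for Sp8 and -0.16 for Lhx2.

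**Figure D5:**
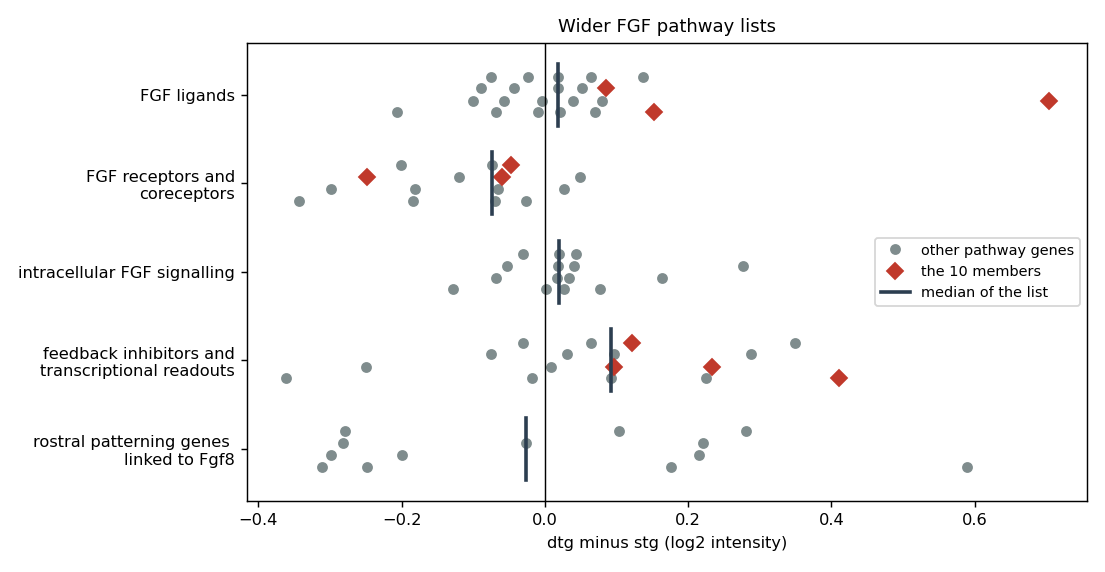
Difference of dtg minus stg in log2 intensity (horizontal axis) for every measured gene of 5 FGF pathway lists (rows), with the 10 members as red diamonds, other genes in grey and the median of each list as a dark bar. Receptors and coreceptors lie mostly left of 0, with a median of -0.073, and Fgf15 lies apart from the other ligand genes at 0.70.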

How the data were processed

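Forebrain RNA of 10 embryos was labelled with biotin and hybridized to 1 Affymetrix array per embryo, per the labels' protocols. The authors deposited log2 intensities for 35556 probe sets, and the submitters' processing notes name Affymetrix Expression Console; algorithm, version and settings are not given in the sources used here, and the number of arrays limits the precision. No further normalization was applied. Probe sets naming 1 gene (21789; 1621 named several and 12146 none) were named through gene identifiers with RefSeq GRCm38.p6, and the probe set with the highest mean stood for each of 19936 genes. Groups came from the titles. limma 3.58.1 in R 4.3.3 (group only, empirical Bayes, two-sided, p-values adjusted by Benjamini-Hochberg over all genes, with 0.05 as the threshold) gave the comparison, beside exact permutation tests over 252 assignments per gene. Intervals are unadjusted at 95%. On simulated data for this comparison, with 200 of 19936 genes changed, 97% of changes of 1 and 75.2% of changes of 0.5 were recovered. There were 53 false calls over 5 runs. Changed genes were picked at random from all genes, whose median SE was 0.0755, and each gene's values were drawn independently. These shares therefore do not hold for a gene with a larger SE, such as Fgf15 (0.223). Correlations used values with group means removed, permuted within groups (14400 arrangements).

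The replicate numbers were not taken as pairs: deviations correlated above 0.1 for 1 of 5 numbers, and the labels do not say that they pair embryos. Named were all members, the 4 other genes of smallest p in each pathway list, and the 3 genes closest to each member. Foxo3, Dusp6 and single marker genes, such as Otx2, Lhx5, En1 and En2, were named outside this rule. The members and lists were chosen with earlier results of these data known. Alternatives were fits with the replicate number as a block, without each embryo, with sex (called from Xist against Y-linked signal) as a covariate, with array weights, and with a variance trend and robust variances. Other settings were quantile-normalized or median-centred values, only genes from the 40th percentile up, averaged probe sets and a threshold of 0.1; counts and list values without stg embryo 5 were added after the data were seen.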

Additional observations from a re-analysis of the deposited data

Results flagged for a closer look

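In 1 of 20 screened sets of values (10 members in 2 groups of 5 embryos) a single embryo lay far from the rest. For Spry2 in the dtg group, embryo 3 read 6.49 while the other 4 lay between 6.87 and 7.0, and its gap to the nearest of them was 0.751 of the group's range, above Dixon's limit of 0.71. Chance flags about 1 in 20 groups. Without dtg embryo 3 the Spry2 difference was 0.50 (limma adjusted p = 0.491).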

How the results depend on the processing

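No member passed an adjusted p of 0.05 under any of the 18 alternatives; the lowest was 0.0837, for Spry2 without stg embryo 5. Of the 10 members 8 kept their direction in all of them. Fgfr1 turned to 0.011 without stg embryo 5, and Etv5 to -0.0057 without dtg embryo 4. Over fits that left out 1 embryo Fgfr1 ran from -0.10 to 0.011 and Etv5 from -0.0057 to 0.27. The ranges ran from 0.51 to 0.83 for Fgf15, 0.34 to 0.54 for Spry2, 0.14 to 0.35 for Spry1 and 0.030 to 0.31 for Fgf17. With the replicate block the Fgf15 difference was 0.70 (limma adjusted p = 0.517) and the number of genes past the threshold 2, against 21 without it; no dtg embryo correlated best with the stg embryo of its own number. That number was 39 with array weights, 55 at a threshold of 0.1, and 7 to 58 over fits that left out 1 embryo. Members with an unadjusted p below 0.05 numbered 5 without stg embryo 5, against 3. The cause of these changes was not tested. The table carries no background signal, so how far the dim Etv4, Spry3, En1 and En2 stand above background is unknown.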
